A study of Mus musculus with 4 samples.

Results

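This account covers 8 genes of the insulin-like growth factor (IGF) system in the lungs of aged mice: the growth factor gene Igf1, its receptor gene Igf1r, and the binding protein genes Igfbp2, Igfbp3, Igfbp4, Igfbp5, Igfbp6 and Igfbp7. They were taken by symbol from the 31054 features that each count matrix lists, and all 8 were found. The mice were male C57BL/6, were 19 months old at the start, and received either BPTES, a small-molecule inhibitor of glutaminase 1, or its vehicle DMSO for 1 month. The lungs were digested with Liberase and sorted on CD45, the surface protein of blood-derived cells, and 20000 CD45-negative cells were mixed with 9000 CD45-positive cells for each droplet library. Each group had 2 libraries, named here BPTES 1, BPTES 2, DMSO 1 and DMSO 2. Both groups were aged wild-type mice, with no young or untreated group, and the labels give neither the number of animals nor whether a library holds 1 mouse or several.

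IGF1 is a secreted growth factor that signals through IGF1R, a receptor tyrosine kinase of the insulin receptor family, to the PI3K and AKT pathway. The IGF-binding proteins are secreted carriers that bind IGFs outside the cell, lengthen their stay and limit or direct their access to the receptor, and proteases of the pappalysin family release the growth factor from some of them. In the lung IGF1 is known mainly as a product of mesenchymal cells and macrophages that acts on epithelial and endothelial neighbours. IGFBP7 is more distant from the classical members and binds IGFs weakly.

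The filtered libraries held 14407 to 18860 cells and 233319948 to 296109130 unique molecular identifiers (UMIs, 1 per captured RNA molecule), with a median of 13928 to 15741 UMIs per cell. Of 63895 cells in 42 clusters, 10386 (16.3%) lay in 8 clusters left without a name. The others were assigned by marker genes to 25 cell classes, written here as "-like", of which 22 had enough cells to be tested. The assignment to type 2 innate lymphoid cells, a single cluster of 800 cells, went against its leading genes (Il23r, Icos and Cxcr6, with none of the 6 markers of that type among the top 10), and at a finer clustering (resolution 2) the cluster with these leading genes was assigned to T cells. It is therefore called cluster 25 here and given no cell type. The barcodes shared by any pair of libraries numbered 75 to 121, at most 0.68% of a library. The 2 DMSO libraries differed from each other in makeup: mesothelial-like cells numbered 1 and 16 with BPTES but 222 in DMSO 1 and 71 in DMSO 2. Levels are given as CPM, a gene's UMIs scaled to the total UMIs of that class in that library, in the order BPTES 1, BPTES 2, DMSO 1 and DMSO 2. They compare 1 gene across classes or libraries, not different genes with each other, and every order of levels below is among the 22 tested classes. In such sums, less RNA per cell and fewer cells that express the gene cannot be told apart.

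The genes lie on 6 chromosomes of the mouse assembly GRCm38. Igf1 spans chr10:87858265-87937042 on the plus strand and Igf1r spans chr7:67952827-68233668 on the plus strand. Igfbp2 (chr1:72824503-72852474, plus strand) and Igfbp5 (chr1:72857932-72874884, minus strand) are neighbours whose ends face each other across 5457 bases. Igfbp3 (chr11:7206086-7213923, minus strand) lies 3539 bases from Igfbp1, a gene with 1 UMI in all cells of the 4 libraries. Igfbp4 spans chr11:99041244-99054392 on the plus strand, Igfbp6 spans chr15:102144362-102149511 on the plus strand, and Igfbp7 spans chr5:77349240-77408041 on the minus strand. An antisense gene, Igf1os, is listed beside Igf1. It had 259 UMIs against 65817 for Igf1, and whether the counting used strand is not given in the sources used here, so reads of the pair may not be fully separated.

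The 100 bases before the RefSeq start (GRCm38.p6) are shown for 4 binding protein genes whose cell patterns differ: the neighbours Igfbp2 and Igfbp5, the adventitial and lymphatic gene Igfbp4, and Igfbp6, the only member called between treatments. Capitals mark a match, on either strand, to the GC box GGGCGG, the TATA box TATAAA or the CCAAT box CCAAT. The windows are chr1:72824380-72824479 (plus strand) for Igfbp2, chr1:72874866-72874965 (minus strand) for Igfbp5, chr11:99041144-99041243 (plus strand) for Igfbp4 and chr15:102144086-102144185 (plus strand) for Igfbp6.

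Igfbp2: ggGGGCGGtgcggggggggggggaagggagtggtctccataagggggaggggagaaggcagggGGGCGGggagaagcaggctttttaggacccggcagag

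Igfbp5: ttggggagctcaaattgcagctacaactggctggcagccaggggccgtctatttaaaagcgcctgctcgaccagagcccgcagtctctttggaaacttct

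Igfbp4: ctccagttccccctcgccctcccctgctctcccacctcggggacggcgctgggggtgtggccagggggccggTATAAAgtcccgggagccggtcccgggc

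Igfbp6: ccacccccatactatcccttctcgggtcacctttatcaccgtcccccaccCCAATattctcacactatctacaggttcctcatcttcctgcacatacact

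The window shown for Igfbp2 holds GC boxes and that of its neighbour Igfbp5 holds no match. RefSeq lists another start for Igfbp2, and the 100 bases before it (chr1:72825287-72825386, not shown) hold no match either. GGGCGG occurred in 24.7% of 32851 RefSeq promoter windows of the same length, CCAAT in 18.9% and TATAAA in 5.56%. A match is a description of the letters and was not tied to any level below.

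Igf1 was a gene of fibroblast-like cells and interstitial macrophage-like cells. In peribronchial fibroblast or myofibroblast-like cells it stood at 451, 373, 310 and 380 CPM, in adventitial fibroblast-like cells at 204, 191, 520 and 407 CPM, in interstitial macrophage-like cells at 233, 287, 229 and 185 CPM, and in alveolar fibroblast-like cells at 131, 148, 110 and 94.4 CPM. The first and the next of these classes overlapped over the libraries, so their order was not resolved. Every endothelial, epithelial and lymphoid class among the 22 tested lay far lower: lymphatic endothelial-like cells reached 24.2 CPM in DMSO 1, and aerocyte-like cells, the gas-exchange capillary cells, lay between 0.59 and 1.00 CPM. Because alveolar fibroblast-like cells were numerous, they held 56.9%, 53.2%, 32.5% and 41.9% of all Igf1 UMIs, and the adventitial-like cells held 12.7%, 16.8%, 46.7% and 35.6%.

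**Figure D1:**
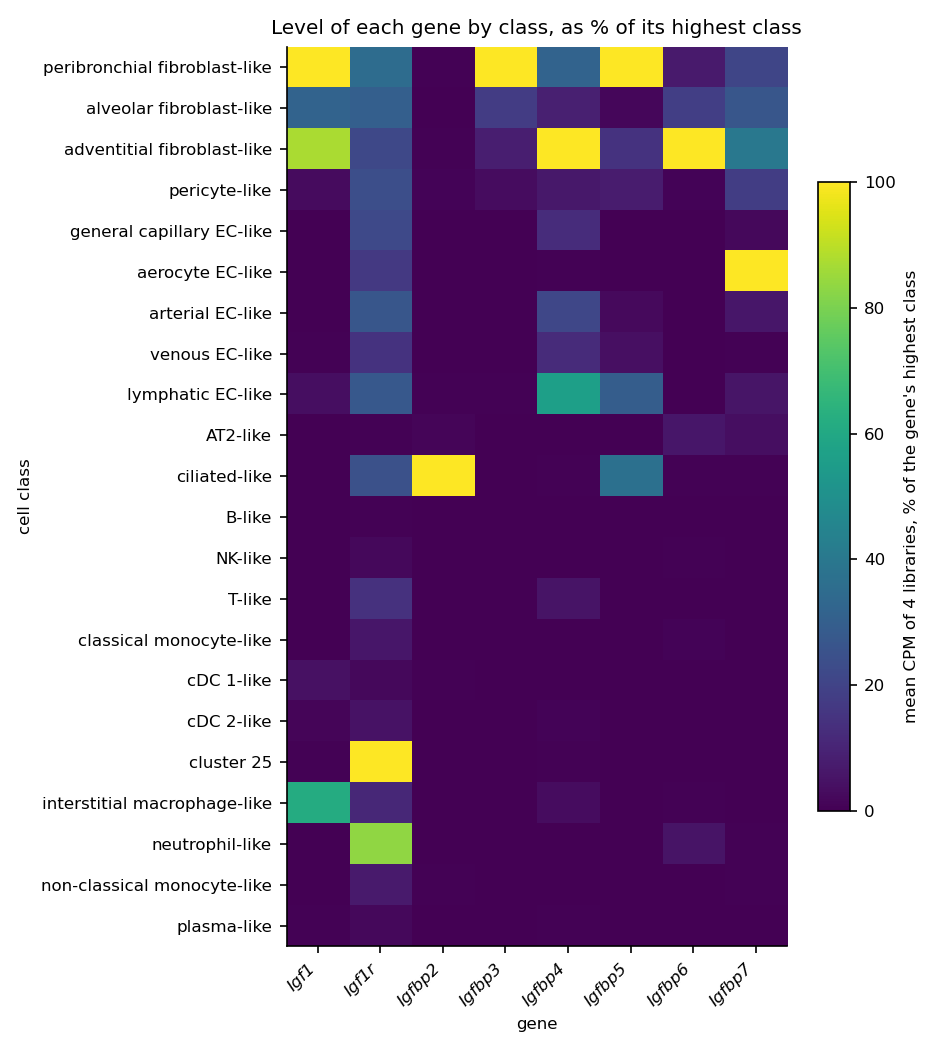
Mean CPM of the 4 libraries for each of the 8 genes (columns) in each of the 22 tested cell classes (rows, EC for endothelial cell), coloured as a percentage of the gene's own highest class. Igfbp7 peaks in aerocyte-like cells, Igfbp4 and Igfbp6 in adventitial fibroblast-like cells, Igf1, Igfbp3 and Igfbp5 in peribronchial fibroblast-like cells, Igf1r in cluster 25 and Igfbp2 in ciliated-like cells.

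Igf1r was detected in every tested class. It was highest in cluster 25 at 1212, 1290, 1162 and 1109 CPM and in neutrophil-like cells at 1068, 1010, 962 and 932 CPM. Among T-like clusters, cluster 38 stood at 1149, 1147, 1374 and 1102 CPM, while the T-like cluster 12 stood at 15.8, 25.2, 15.6 and 14.9 CPM. Fibroblast-like and endothelial-like classes formed a middle range, with alveolar fibroblast-like cells at 367, 370, 340 and 361 CPM. Alveolar type 2 (AT2)-like cells, the surfactant-producing epithelium, were lowest at 3.65, 4.32, 10.54 and 9.24 CPM, just below B-like cells at 8.62, 7.27, 6.58 and 5.80 CPM, and those ranges overlapped.

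Igfbp2, a binding protein often found in epithelium, had its highest level among the 22 tested classes in ciliated-like cells, with 122, 118, 107 and 113 CPM. The next class, AT2-like cells, had 1.65, 1.51, 1.11 and 2.19 CPM. A higher level was found in cluster 36, left without a name because markers of both AT1 cells (flat alveolar epithelium) and secretory cells led it, with 123, 75, 55 and 94 cells and 1742, 1323, 373 and 1569 CPM. That cluster held 85.3%, 64.8%, 42.4% and 78.4% of the Igfbp2 UMIs, and ciliated-like cells held 10.6%, 28.2%, 43.2% and 16.3%, so in DMSO 1 the pair held nearly equal shares. At resolution 2 an AT1-like class of 102, 54, 34 and 73 cells separated, with 2607, 2487, 923 and 2235 CPM. DMSO 1 was the lowest library in both, and Igfbp2 itself was kept out of the genes used for clustering.

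Igfbp3, the main carrier of IGFs in serum, stood highest in peribronchial fibroblast-like cells at 1551, 1770, 2179 and 1640 CPM. It followed in alveolar fibroblast-like cells at 303, 252, 349 and 366 CPM and in adventitial-like cells at 146, 90.5, 162 and 211 CPM. The first class did not overlap the next in any library. The unnamed cluster 40, with 7, 13, 33 and 27 cells and general capillary endothelial cells as its best but low marker score, had 501, 1324, 383 and 479 CPM. Within the alveolar fibroblast-like class it was uneven: cluster 1 had 458, 407, 454 and 483 CPM, and cluster 7 had 92.1, 51.0, 68.7 and 88.1 CPM.

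Igfbp4, a binding protein cleaved by the protease PAPP-A, was highest in adventitial fibroblast-like cells at 1518, 1463, 1556 and 1441 CPM. Among the tested classes lymphatic endothelial-like cells came next at 846, 855, 852 and 830 CPM, with no overlap, and then peribronchial-like cells at 413, 588, 474 and 437 CPM. The untested mesothelial-like cells, at 372 (in 1 cell), 257, 575 and 898 CPM, overlapped both. Arterial endothelial-like cells had 333, 274, 325 and 335 CPM. Among the clusters of alveolar fibroblast-like cells, cluster 7, whose marker score was nearly as high for adventitial fibroblasts (1.54) as for alveolar ones (1.59), stood at 433, 546, 531 and 440 CPM, whereas cluster 2 had 39.3, 32.8, 32.4 and 24.7 CPM.

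Igfbp5, a binding protein that also adheres to extracellular matrix, was highest among the 22 tested classes in peribronchial fibroblast-like cells at 1860, 1803, 1669 and 1476 CPM. Ciliated-like cells, where its neighbour Igfbp2 was also found, had a narrow range of 648, 623, 632 and 618 CPM. Lymphatic endothelial-like cells ranged more widely, at 200, 485, 775 and 553 CPM, and overlapped both ciliated-like and adventitial-like cells. The mesothelial-like cells, too few to be tested, stood at 3160 (in 1 cell), 1351, 1087 and 3387 CPM and carried 32.3% of all Igfbp5 UMIs in DMSO 1 and 18.2% in DMSO 2, against 0.13% and 1.25% with BPTES.

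Igfbp6, which binds IGF2 in preference to IGF1, was highest among the tested classes in adventitial fibroblast-like cells at 1207, 1477, 816 and 1194 CPM. The untested mesothelial-like cells stood at 1673 (in 1 cell), 1182, 1025 and 2122 CPM. Of the 2 adventitial-like clusters, cluster 30 had 1831, 2325, 1983 and 2000 CPM and cluster 18 had 813, 974, 510 and 824 CPM, with no overlap. Alveolar fibroblast-like cells followed at 225, 234, 195 and 214 CPM. The AT1-like class of the finer clustering had 482, 466, 678 and 597 CPM, and AT2-like cells had 64.8, 67.2, 83.0 and 69.9 CPM.

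Igfbp7, also known as a secreted protein of vascular basement membrane, was highest in aerocyte-like cells at 4982, 5059, 5052 and 5258 CPM. Adventitial fibroblast-like cells had 2139, 2006, 2110 and 1896 CPM, and alveolar fibroblast-like cells had 1599, 1542, 1127 and 1182 CPM. At resolution 2, AT1-like cells had 2161, 1825, 1922 and 2056 CPM, and smooth muscle-like cells had 1510, 2279, 2273 and 1954 CPM. The other capillary class, general capillary endothelial-like cells, had 103, 166, 80.4 and 93.5 CPM. The unnamed cluster 40, which scored best, though low, for general capillary markers, had 4519, 4633, 4201 and 3622 CPM. Aerocyte-like cells, the highest of the 22 tested classes for Igfbp7, were among the lowest for Igf1, where their range overlapped that of ciliated-like cells (0.26 to 1.43 CPM).

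**Figure D2:**
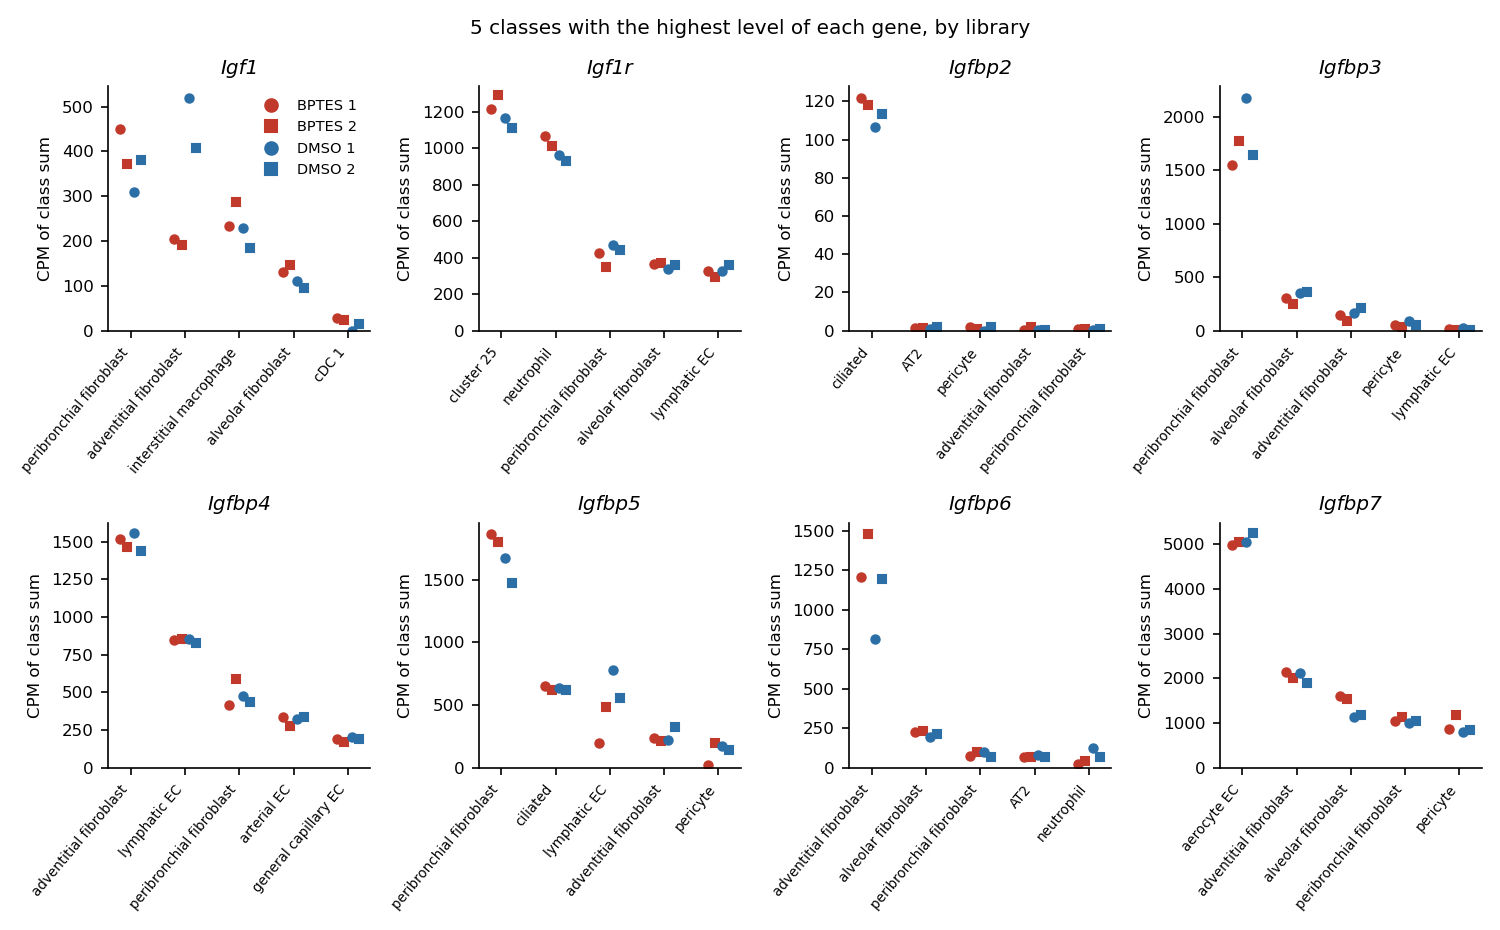
CPM per library (vertical axis, starting at 0) of each gene in the 5 tested classes where its mean level was highest; each point is 1 library, red for BPTES and blue for DMSO, circles for replicate 1 and squares for replicate 2. In most leading classes the 4 points lie close together, as for Igfbp4 in adventitial-like cells (1441 to 1556 CPM), while Igf1 in adventitial-like cells splits into 204 and 191 against 520 and 407 CPM.

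Genes with the most similar pattern were ranked by Pearson r of log2(CPM + 1) over the 22 classes, among 9039 genes; the classes share libraries and these values describe the pattern only. For Igf1 they were Col14a1 (r = 0.90), Negr1 and C4b, and for Igf1r they were Cpd (r = 0.75), Txnl1 and Eml1. For Igfbp2 they were 6820408C15Rik (r = 0.99), Spata18 and Rsph14, and for Igfbp3 they were Adamts17 (r = 0.97), Gata5 and Igsf10. The 22 classes leave out the unnamed cluster 36, which held 85.3%, 64.8%, 42.4% and 78.4% of the Igfbp2 UMIs. The genes given for Igfbp2 therefore reflect its pattern without that cluster. Igfbp4 was nearest to Iigp1 (r = 0.91), Nup210l and Ltbp1, and Igfbp5 to Kank1 (r = 0.93), Adamts5 and Lama4. Igfbp6 was nearest to Rbp4 (r = 0.89), Dclk1 and Echdc2, and Igfbp7 to Gnai1 (r = 0.92), Mylk and Samd4. Among the members themselves, the closest pair was Igf1 and Igfbp3, with r = 0.78.

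The comparison of BPTES with DMSO asked whether inhibition of glutaminase moved these genes within a cell class. UMIs were summed per library and class and tested with edgeR's quasi-likelihood test, with Benjamini-Hochberg adjustment over all genes of the class and a call at an adjusted p under 0.05. Of 135 member and class pairs with enough counts, 1 was called, Igfbp6 in neutrophil-like cells (0.741%, beside 0.199% of all 267262 gene and class pairs). At an unadjusted p under 0.05, 23 pairs passed, 11 higher and 12 lower with BPTES (17.04%, beside 12.6% of all pairs). The median log2 fold change of the 135 pairs was -0.08. DESeq2 called 8 pairs, beside 1.31% of all pairs, and edgeR called 28 without its filter on low counts, beside 3.11%, and 5 with the replicate number as a block, beside 1.48%. The 2 groups did not overlap in CPM in 53 pairs, 26 higher and 27 lower (39.3%, beside 44.8% of all pairs), a share near the background and so not a result about the members. Where 1 library is left out below, its group is a single library that is assumed to vary like the pair in the other group, so those p-values rest on the spread of that pair.

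**Figure D3:**
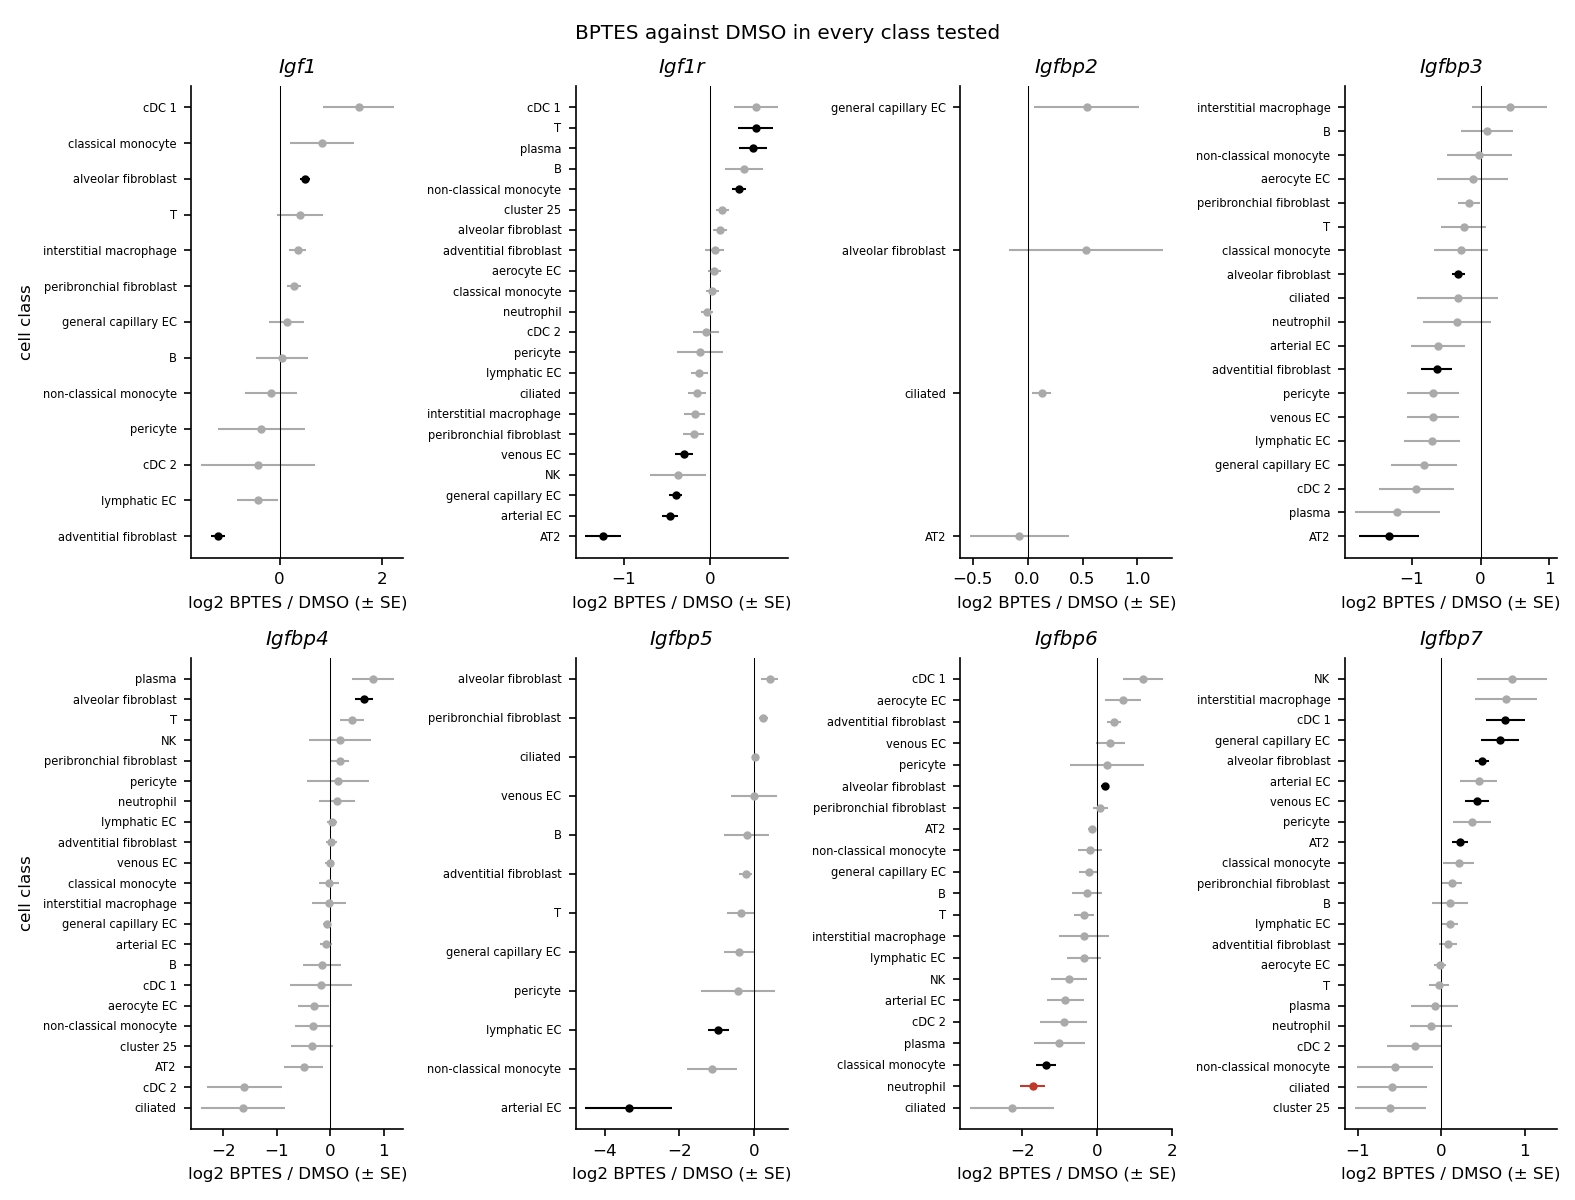
Log2 fold change of BPTES over DMSO (horizontal axis, with SE bars, edgeR on 2 libraries per group) for each of the 135 tested gene and class pairs, ordered within each gene. Red marks the pair called at an adjusted p under 0.05, Igfbp6 in neutrophil-like cells at -1.72, black the other pairs with an unadjusted p under 0.05, and grey the rest.

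Igfbp6 fell in neutrophil-like cells with BPTES. It stood at 22.7 and 42.2 CPM in the BPTES libraries and at 125 and 65.3 CPM in the DMSO libraries, from 101, 212, 812 and 356 UMIs in 503, 511, 637 and 574 cells. Both DMSO libraries were above both BPTES libraries, and DMSO 1 was the highest. The log2 fold change was -1.72 (SE 0.324, edgeR's quasi-likelihood test, Benjamini-Hochberg adjusted p = 0.0449), in a class where 1.19% of the 9214 tested genes were called lower. The call did not hold when DMSO 1 was left out (log2 fold change -1.19, adjusted p = 0.0832) or with DESeq2 (-1.73, adjusted p = 0.0652), and it was lost in 8 of 15 alternative settings, all with a negative fold change.

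The share of neutrophil-like cells with at least 1 Igfbp6 UMI was 13.3%, 21.7%, 48.0% and 31.5%. In B-like cells it was 1.85%, 2.18%, 3.12% and 2.42%, a far lower share in the same order of libraries, while the groups overlapped in CPM. Median depths were 10709 to 11537 UMIs per cell in B-like cells and 8666 to 9525 in neutrophil-like cells. Thinned to 3000 UMIs per cell, the neutrophil-like shares were 6.03%, 11.7%, 25.7% and 14.8%, in the same order of libraries. Up to 20 UMIs were found in 1 neutrophil-like cell, and the top 2 cells held 3.69% to 13.2% of a library's UMIs. The source of the signal in neutrophil-like and B-like cells was not tested.

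Marker lists were also summed in neutrophil-like cells, and their directions differed. The summed level of 7 neutrophil markers was 83242, 84699, 109658 and 115804 CPM, with 5 of 7 lower in the BPTES mean. Of the fibroblast lists, only the adventitial one is given here: its 7 markers summed to 203, 185, 190 and 209 CPM in these cells, and the groups overlapped. The alveolar fibroblast list is not given, though alveolar fibroblast-like cells held 48.7%, 35.6%, 31.2% and 39.3% of all Igfbp6 UMIs. The 6 mesothelial markers summed to 0.45, 2.39, 10.0 and 1.84 CPM, with Msln and Lrrn4 at 0, and were highest in DMSO 1. The 7 AT2 markers ran the other way, at 513, 823, 128 and 292 CPM. The part of these in the Igfbp6 result was not tested.

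**Figure D4:**
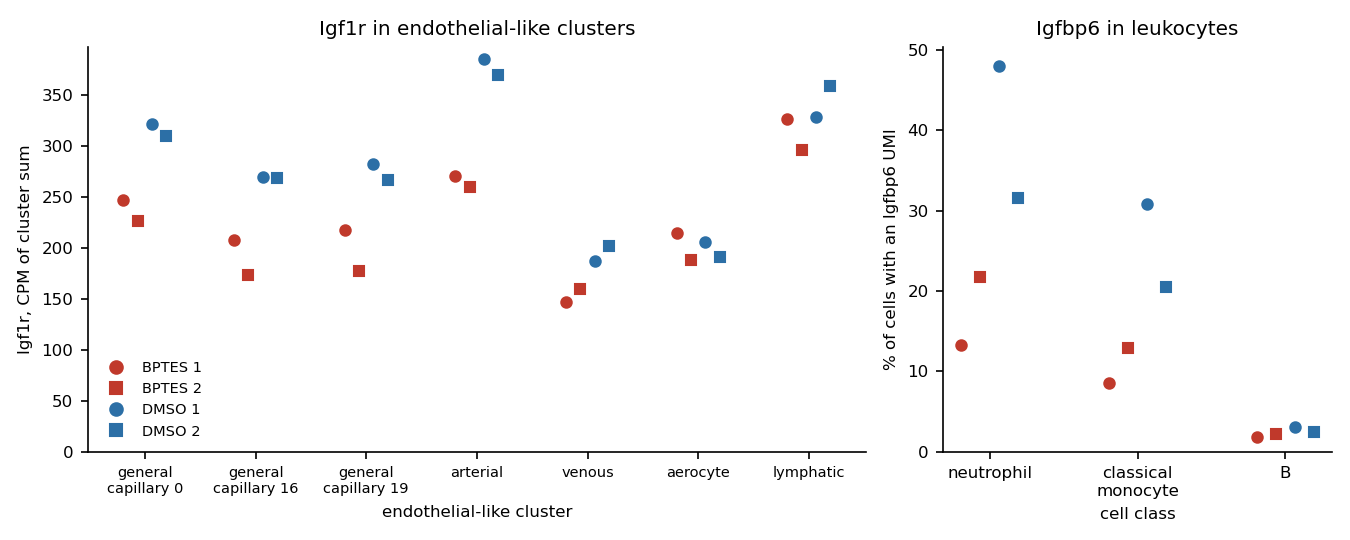
Left, Igf1r level (CPM) per library in 3 general capillary endothelial-like clusters and 4 other endothelial-like classes; right, the percentage of neutrophil-like, classical monocyte-like and B-like cells with an Igfbp6 UMI; each point is 1 library, red for BPTES and blue for DMSO, circles for replicate 1 and squares for replicate 2. Both DMSO points lie above both BPTES points in every endothelial-like unit on the left but the aerocyte-like cells, and in all 3 classes on the right: neutrophil-like (48.0% and 31.5% against 13.3% and 21.7%), classical monocyte-like (30.8% and 20.4% against 8.53% and 12.9%) and B-like (3.12% and 2.42% against 1.85% and 2.18%). Of all gene and class pairs, 44.8% had groups that did not overlap in CPM. The shares on the right are not thinned to an equal depth. In CPM, Igfbp6 overlapped between the groups in B-like cells (log2 fold change -0.27, edgeR adjusted p = 0.894).

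Classical monocyte-like cells showed the same order of libraries at a lower level. Igfbp6 stood at 4.005, 6.25, 16.6 and 11.2 CPM, with no overlap between groups, and 8.53%, 12.9%, 30.8% and 20.4% of cells had a UMI. The log2 fold change was -1.37 (SE 0.270, edgeR adjusted p = 0.101) and was not called. It was called in 5 of 15 alternative settings, among them without DMSO 2 (-1.64, adjusted p = 0.000442), with DESeq2 (-1.39, adjusted p = 0.00143) and without the filter on low counts (-1.36, adjusted p = 1.01e-11). In non-classical monocyte-like cells the groups overlapped, at 3.17, 3.31, 2.97 and 4.25 CPM. The unnamed cluster 31, led by neutrophil genes, stood at 8.47 and 9.80 against 35.8 and 19.2 CPM. Over the 21 tested classes the Igfbp6 groups were apart in 52.4% (beside 44.8% of all gene and class pairs), higher with BPTES in 4 and lower in 7. The lower ones included NK-like (-0.75, edgeR adjusted p = 0.733), plasma-like (-1.01, adjusted p = 0.559), T-like (-0.34, adjusted p = 0.670) and arterial endothelial-like cells (-0.84, adjusted p = 0.489), none of them called. The higher ones were type 1 dendritic-like (1.23, edgeR adjusted p = 0.648), aerocyte-like (0.69, adjusted p = 0.692), adventitial fibroblast-like (0.45, adjusted p = 0.372) and alveolar fibroblast-like cells (0.20, adjusted p = 0.211), also without a call.

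In adventitial fibroblast-like cells, the tested class with the highest Igfbp6, the BPTES libraries were slightly above the DMSO libraries (1207 and 1477 against 816 and 1194 CPM; log2 fold change 0.45, SE 0.195, edgeR adjusted p = 0.372). Without the cells that had a Wt1 UMI, a choice made after seeing the data and described below, the value was 0.28 (edgeR adjusted p = 0.588). The difference of the fold changes, neutrophil-like minus adventitial-like, was -2.18 on the log2 scale (SE 0.373, edgeR interaction test, adjusted p = 0.0784), and 0.0633% of all genes were called in that test. Without the Wt1 cells it was -2.01 (adjusted p = 0.0652). It was -1.45 without DMSO 1 (adjusted p = 1.37e-08) and -2.87 without DMSO 2 (adjusted p = 1.43e-15), where the spread comes from the BPTES pair alone, and it did not pass without BPTES 1 (-1.96, adjusted p = 0.573) or without BPTES 2 (-2.46, adjusted p = 0.881).

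Igf1 was lower with BPTES in the sum of adventitial fibroblast-like cells, at 204 and 191 against 520 and 407 CPM, with no overlap. The log2 fold change was -1.21 (SE 0.144, edgeR adjusted p = 0.119), which was not called. It was called in 5 of 16 alternative settings, among them without DMSO 1 (-1.005, adjusted p = 0.0134), without DMSO 2 (-1.39, adjusted p = 0.000656) and with DESeq2. In alveolar fibroblast-like cells Igf1 stood the other way, at 131 and 148 against 110 and 94.4 CPM (log2 fold change 0.49, SE 0.0953, edgeR adjusted p = 0.0781). The difference of these fold changes, for a pair of classes chosen after seeing the data, was -1.67 on the log2 scale (SE 0.129, edgeR interaction test, adjusted p = 0.0165), and 0.0348% of all genes were called in that test.

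The class also differed between libraries in the number of cells with a UMI of Wt1, a transcription factor of mesothelial and some mesenchymal cells. Adventitial-like cells with a Wt1 UMI numbered 0, 15, 115 and 91, which was 0%, 2.78%, 19.5% and 18.2% of the class. Their Igf1 level was 593 CPM in BPTES 2, 1359 CPM in DMSO 1 and 1343 CPM in DMSO 2. These cells carried the adventitial genes Pi16, Dpt, Col14a1 and Scara5 (Dpt at 1342, 1378 and 909 CPM in the same 3 libraries), and the mesothelial genes Msln, Upk3b and Lrrn4 stood at 0 to 0.78 CPM. The mesothelial markers Gpm6a and Muc16 were not read apart in these cells. Over the whole class the mesothelial marker sum was 1.22, 10.7, 145 and 140 CPM, and the part of Wt1 in it was not separated.

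Wt1 was chosen after seeing the data, as the mesothelial marker that differed between the groups. Leaving out the cells with its UMI thus removed mainly DMSO cells, and the fits without them are a description. Without those cells Igf1 stood at 204, 176, 249 and 174 CPM and the groups overlapped. The log2 fold change was then -0.12 (SE 0.182, edgeR adjusted p = 0.834), and its difference from alveolar fibroblast-like cells was -0.57 (adjusted p = 0.442). All cells with a Wt1 UMI lay in cluster 18, whose Igf1 level was 251, 225, 626 and 544 CPM, while cluster 30 stood at 130, 132, 114 and 109 CPM. The number of these cells in both BPTES libraries and their Igf1 level in BPTES 2 were below the DMSO values, and the part of either in the class difference was not tested. In cluster 30, Igfbp5 was higher with BPTES, at 169 and 167 against 88.9 and 96.3 CPM (log2 fold change 0.90, SE 0.104, edgeR adjusted p = 0.0608), which was not called.

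**Figure D5:**
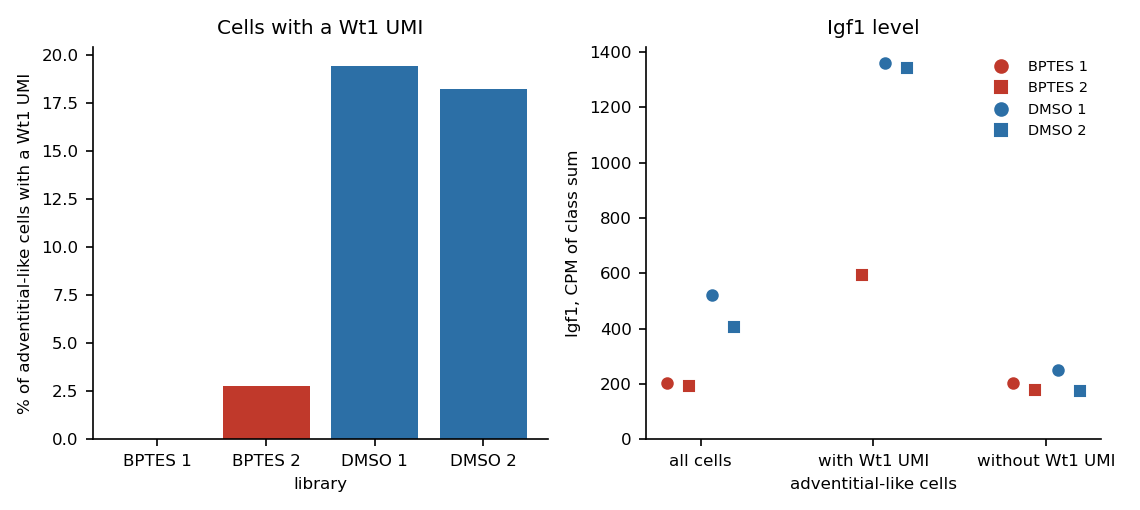
Left, the percentage of adventitial fibroblast-like cells with a Wt1 UMI in each library; right, Igf1 level (CPM) over all cells of the class, over cells with a Wt1 UMI and over cells without, each point 1 library, red for BPTES and blue for DMSO. The DMSO libraries lie at 520 and 407 CPM over all cells and at 249 and 174 CPM without the Wt1 cells, next to 204 and 176 CPM with BPTES.

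In alveolar fibroblast-like cells, all 8 members were tested, 7 with a positive fold change, and 5 passed an unadjusted p under 0.05, where 22.7% of all genes of the class did so and 0.37% were called. Igfbp7 stood at 1599 and 1542 against 1127 and 1182 CPM (log2 fold change 0.48, SE 0.0818, edgeR adjusted p = 0.0642), and Igfbp4 at 127 and 187 against 110 and 100 CPM (0.63, SE 0.167, adjusted p = 0.112). Igfbp3 was the exception, at 303 and 252 against 349 and 366 CPM (-0.32, SE 0.0967, adjusted p = 0.126). None of these was called with the reported edgeR settings. Over 15 alternative settings, Igfbp7 was called in 7, Igf1 in 4, Igfbp4 in 3 and Igfbp3 in 1. DESeq2 on all libraries called Igfbp7 (0.49, adjusted p = 3.2e-06), Igf1 (0.50, adjusted p = 0.000632) and Igfbp3 (-0.32, adjusted p = 0.0441). In edgeR, Igfbp7 passed without BPTES 1 (0.48, edgeR adjusted p = 0.0388), without BPTES 2 (0.50, adjusted p = 0.0378) and without DMSO 2 (0.54, adjusted p = 0.0487), and without BPTES 1 so did Igf1 (0.60, adjusted p = 0.0187) and Igfbp4 (0.90, adjusted p = 0.00242). Without BPTES 2, Igfbp4 was 0.31 (edgeR adjusted p = 0.257) and Igfbp3 was -0.21 (adjusted p = 0.474).

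The class holds 3 clusters whose shares of CD45-negative cells differed between libraries. Cluster 1, low in Igf1, Igfbp4 and Igfbp7 and high in Igfbp3, made up 8.98%, 10.4%, 16.7% and 11.9%, and cluster 7, high in Igf1, Igfbp4 and Igfbp7, made up 5.22%, 6.99%, 4.41% and 4.38%. Within clusters the fold changes were smaller. For Igfbp7 the log2 values were 0.23 in cluster 1, 0.28 in cluster 2 and 0.23 in cluster 7, and for Igf1 they were 0.32, 0.33 and 0.34. For Igfbp4 they were -0.27, 0.36 and 0.05, and for Igfbp3 -0.09, -0.23 and -0.11. No member was called in any of the 3.

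Igf1r was lower in both BPTES libraries than in both DMSO libraries of the general capillary, arterial, venous and lymphatic endothelial-like classes, without a call. Of all genes tested in these classes, 55.8%, 46.5%, 44.8% and 43.5%, in that order, had groups that did not overlap. Over the 22 tested classes the Igf1r groups were apart in 63.6% (beside 44.8% of all gene and class pairs), higher with BPTES in 8 and lower in 6. In general capillary endothelial-like cells Igf1r stood at 237 and 207 against 314 and 301 CPM (log2 fold change -0.40, SE 0.0778, edgeR adjusted p = 0.118), in a class where 21% of genes had an unadjusted p under 0.05 and 0% of the 15126 tested were called. The groups did not overlap in any of its 3 clusters, beside 55.8% of all genes in the class as a whole. The log2 values were -0.36 in cluster 0, -0.46 in cluster 16 and -0.44 in cluster 19. The test passed in 4 of 15 alternative settings, among them without BPTES 1 (-0.46, adjusted p = 0.02995) and with DESeq2 (adjusted p = 0.00507).

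Arterial endothelial-like cells had 271 and 260 against 386 and 370 CPM (-0.46, SE 0.0945, edgeR adjusted p = 0.131) and venous endothelial-like cells 147 and 160 against 188 and 202 CPM (-0.31, SE 0.100, adjusted p = 0.276). The arterial value passed in 3 of 15 alternative settings, among them without BPTES 1 (-0.47, edgeR adjusted p = 0.0244). Lymphatic endothelial-like cells had 327 and 296 against 329 and 359 CPM, nearly touching. In aerocyte-like cells, the other capillary class, the groups overlapped at 214, 189, 206 and 191 CPM. The difference of the fold changes between general capillary endothelial-like and alveolar fibroblast-like cells, a pair chosen after seeing the data, was -0.52 (SE 0.107, edgeR adjusted p = 0.131), and 0.203% of all genes were called in that test.

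In AT2-like cells Igf1r stood at 3.65 and 4.32 against 10.54 and 9.24 CPM (log2 fold change -1.24, SE 0.202, edgeR adjusted p = 0.0713). It passed in 6 of 15 alternative settings, among them without DMSO 1 (-1.16, edgeR adjusted p = 0.0272) and without DMSO 2 (-1.31, adjusted p = 0.0138), and it was -0.54 (adjusted p = 0.224) with doublets kept. These levels came from 64, 80, 57 and 93 UMIs, and in DMSO 1 the top 2 cells held 42.1% of them. The 7 neutrophil markers in AT2-like cells summed to 15.2, 19.5, 483 and 31.1 CPM, highest in DMSO 1, and Igf1r is high in neutrophil-like cells; their part in the result was not tested. Among blood cells, T-like cells had 194 and 208 against 180 and 108 CPM (0.52, SE 0.198, edgeR adjusted p = 0.375, and 0.93, adjusted p = 0.00693, without DMSO 1 but 0.19, adjusted p = 0.613, without DMSO 2). Cluster 38, the T-like cluster high in Igf1r, made up 94 of 800, 96 of 1003, 58 of 691 and 55 of 1144 T-like cells, and within the 4 T-like clusters the log2 values were 0.46 (12), 0.12 (21), 0.25 (33) and -0.13 (38), with no call. Non-classical monocyte-like cells had 96.2 and 92.9 against 79.8 and 74.1 CPM (0.33, SE 0.0793, edgeR adjusted p = 0.350, and 0.12 with doublets kept). In neutrophil-like cells the CPM groups did not overlap, higher with BPTES, but the fitted log2 fold change after TMM scaling was -0.04.

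The fold change of Igfbp3 was negative in 17 of 19 tested classes and none was called, with the groups apart in 7, all lower with BPTES (36.8%, below the 44.8% of all gene and class pairs). Igfbp7 was positive in 14 of 22, with the groups apart in 7, all higher with BPTES (31.8%, also below that share). Neither count is a result about these members. In general capillary endothelial-like cells Igfbp7 stood at 103 and 166 against 80.4 and 93.5 CPM (log2 fold change 0.71, SE 0.228, edgeR adjusted p = 0.169, and 1.04, adjusted p = 0.0122, without BPTES 1 but 0.27, adjusted p = 0.338, without BPTES 2). Its values within the clusters of that class were 0.14, -0.31 and 0.14 in clusters 0, 16 and 19, and cluster 16, where Igfbp7 was highest, made up 3.78%, 5.78%, 1.14% and 2.36% of CD45-negative cells.

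In lymphatic endothelial-like cells Igfbp5 stood at 200 and 485 against 775 and 553 CPM (log2 fold change -0.95, SE 0.282, edgeR adjusted p = 0.172), and leaving out 1 library gave -1.73 to -0.42. It was called in 4 of 15 alternative settings, among them without BPTES 2 (-1.73, adjusted p = 1.61e-06) and without DMSO 2 (-1.16, adjusted p = 0.0040). In arterial endothelial-like cells Igfbp5 stood at 11.3, 1.99, 140 and 7.29 CPM (-3.36, SE 1.15, edgeR adjusted p = 0.254). There 94.5% of the DMSO 1 UMIs lay in 2 cells, and the value was -0.10 without DMSO 1, -5.05 without BPTES 1 (adjusted p = 0.122) and -4.34 without DMSO 2 (adjusted p = 0.000193).

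In whole-library sums, where shares of classes and levels within them cannot be told apart, 0 of 8 members were called by edgeR, beside 0% of 21459 genes. At an unadjusted p under 0.05, 1 of the 8 passed, beside 17.5% of all genes. It was Igfbp3, at 94.2 and 95.4 against 134 and 117 CPM (log2 fold change -0.34, SE 0.0752, edgeR adjusted p = 0.206). DESeq2 called that gene alone among the 8, beside 5.95% of all genes. Igfbp2 ranged from 2.21 to 15.02 CPM over the libraries, with overlap between groups.

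Of 36 other genes of the pathway, listed as ligand, receptors, signalling, proteases and related genes, 510 gene and class pairs were tested. edgeR called 0, beside 0.199% of all gene and class pairs. At an unadjusted p under 0.05, 89 passed (46 higher and 43 lower, 17.5%, beside 12.6% of all pairs), and DESeq2 called 11, 2 higher and 9 lower, beside 1.31% of all pairs. One gene of each role is given for its class pattern, chosen as the gene of the role with the highest CPM in any tested class. Igf2, the other growth factor, was at 2.19, 1.74, 2.00 and 2.01 CPM in adventitial-like cells. Igfals, the acid-labile subunit of the serum IGF complex, was at 2.45, 1.30, 1.29 and 2.28 CPM in AT2-like cells. Insr, the insulin receptor, stood at 327, 258, 306 and 251 CPM in venous endothelial-like cells. Pappa2, a protease of IGF-binding proteins, stood at 735, 802, 206 and 545 CPM in peribronchial-like cells, the tested class with the highest Igfbp3 and Igfbp5.

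Ghr, the growth hormone receptor, which drives Igf1 in several tissues, stood at 903 and 856 against 1313 and 1327 CPM in general capillary endothelial-like cells (log2 fold change -0.52, SE 0.0817, edgeR adjusted p = 0.118). The groups did not overlap, beside 55.8% of all genes tested in that class. The fold change was also negative in arterial (-0.69, edgeR adjusted p = 0.101), venous (-0.51, adjusted p = 0.121) and lymphatic endothelial-like cells (-0.42, adjusted p = 0.115), with no call. Summed per cluster, a choice made after seeing the data, 3 of 858 pathway pairs were called, all lower (0.35%, beside 0.151% of all gene and cluster pairs). They were Ghr in the general capillary-like cluster 19 (-0.56, edgeR adjusted p = 0.0352), Ghr in the unnamed cluster 15 (-0.72, adjusted p = 0.0491), and Cyr61, which carries an IGFBP domain, in the unnamed cluster 11 (-0.83, adjusted p = 0.0115). Clusters 15 and 11 were shallow, with 0 markers of their best-scoring class detected. Pik3r1, a subunit of PI3K, was highest in NK-like cells at 785, 674, 758 and 836 CPM, and Crim1, which also carries an IGFBP domain, in pericyte-like cells at 2192, 2378, 2310 and 2049 CPM.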

How the data were processed

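Each library was deposited as a filtered 10x Genomics matrix of UMI counts per gene and barcode, made with Cell Ranger 8.0.1 on the mouse build mm10, per the submitters' processing notes. The deposited counts are not normalised, and no annotation of cells was used here. Barcodes were dropped here when they had fewer than 500 genes, fewer than 1000 UMIs or over 10% of UMIs from mitochondrial genes, and the highest doublet scores were removed (6.14% to 8.22% of a library, at 0.4% per 1000 barcodes, by simulated doublets within each library). Cells were clustered with igraph 0.11.9 (Leiden, resolution 1, 15 neighbours, 40 components, 2000 variable genes without the 8 members and 36 pathway genes) and named from marker lists. A name was withheld where the marker score was low, fewer than 3 markers were detected, another class led the top genes, or the cells were shallow with none of the name's markers among the top genes. The name of cluster 25 was dropped after its leading genes were seen, and it stayed among the tested classes.

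UMIs were summed per library and class, with at least 50 cells in every library, and the quasi-likelihood test of edgeR 4.0.16 (two-sided, R 4.3.3) was run with TMM scaling and filterByExpr, with Benjamini-Hochberg adjustment inside each class. DESeq2 1.42.0 was the alternative tool. The tests were checked on simulated counts. Libraries are the replicates. The labels do not say that they come from separate mice, so the p-values measure the spread between these libraries, which may be technical. Same-numbered libraries of the 2 groups did not deviate together (r = -0.16 to 0.09 over 22 classes), so they were not paired. Coordinates are GENCODE vM21 genes on GRCm38, and promoter sequences are from RefSeq (GRCm38.p6, 8 of 8 members matched).

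The members, marker lists, pathway list and pairs of classes were chosen with earlier results of these data known. All 8 members are named, with the pathway genes called in a class or cluster or highest in their role, and the 3 most similar genes (at least 50 CPM in some class). The growth hormone receptor is also described in classes without a call, a choice made after its values were seen. Shares of UMIs and of cells are given without intervals. The printed SE values are from edgeR fits of library sums, so they reflect the spread between libraries, as the p-values do.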

Additional observations from a re-analysis of the deposited data

Results flagged for a closer look

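The BPTES effect on Igf1 differed between 2 fibroblast classes. The log2 fold change in adventitial fibroblast-like cells minus that in alveolar fibroblast-like cells was -1.67 (edgeR interaction test, adjusted p = 0.0165, 2 libraries per group), lower in both BPTES libraries than in both DMSO libraries of the first class and higher in both of the other. What brought it up was this test of the difference itself, on a pair of classes chosen after seeing the data. Leaving out 1 library gave -1.79 to -1.56. Without the adventitial-like cells that had a Wt1 UMI it was -0.57 (edgeR adjusted p = 0.442). Wt1 was chosen because it differed between the groups, so that value is a description and not a test of the difference.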

How the results depend on the processing

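With 2 libraries per group, calls depended strongly on the settings. The count of member and class pairs called, 1 of 135 with the reported settings, was 8 with DESeq2 (beside 1.31% of all gene and class pairs), 28 without the filter on low counts (3.11%), 8 with a crossed replicate block (1.69%), and 5 to 13 when 1 library was left out (11 without BPTES 1 beside 1.85% of all pairs, 5 without BPTES 2 beside 0.697%, 5 without DMSO 1 beside 0.556%, and 13 without DMSO 2 beside 1.34%). It was 0 with Leiden seed 1 (0.118%), with IGF genes allowed among the clustering genes (0.185%) and with doublets kept (0.15%). The count of pathway pairs called, 0, was 11 with DESeq2, 53 without the filter, 4 at resolution 0.5 (beside 0.455% of all pairs), 1 with IGF genes allowed, and 4 to 28 when 1 library was left out, beside the same shares of all pairs (28 without BPTES 1, 5 without BPTES 2, 4 without DMSO 1 and 17 without DMSO 2). In whole-library sums the count of 0 became 1 with DESeq2.

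With the replicate number as a block, which the labels do not tie to a shared animal, litter or day, 5 member pairs and 14 pathway pairs were called, beside 1.48% of all pairs.

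The difference between neutrophil-like and adventitial-like cells for Igfbp6 (-2.18) was -2.15 without the filter (adjusted p = 1.38e-15, against 0.0784 with it), -2.01 without Wt1 cells and -2.87 to -1.45 when 1 library was left out. That for Igf1 (-1.67), a call with the reported settings, was -0.57 and no longer a call without cells with Wt1, chosen for its difference between groups. That for Igf1r (-0.52) was -0.55 without the filter (edgeR adjusted p = 0.00342, against 0.131). The differences for Igfbp6 and Igf1r thus became calls without the filter. Of 345 alternative values for the 23 pairs with an unadjusted p under 0.05, 285 stayed on the same side of the threshold, 51 passed it newly, 8 no longer passed, all of Igfbp6 in neutrophil-like cells, and 1 reversed: Igfbp7 in type 1 dendritic-like cells, 0.77 with the reported settings, was -0.10 with doublets kept. The causes were not tested. Levels near 1 CPM rest on few UMIs, so differences there are uncertain, and a detection limit was not measured.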

Other observations

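Mesothelial-like cells were too few to be tested (1, 16, 222 and 71 cells in BPTES 1, BPTES 2, DMSO 1 and DMSO 2). In the 3 libraries with more than 1 such cell, Igfbp5 stood at 1351, 1087 and 3387 CPM, Igfbp6 at 1182, 1025 and 2122 CPM, and Igf1 at 76.6, 273 and 102 CPM. They held 20.7% of all Igfbp6 UMIs in DMSO 1 and 6.84% in DMSO 2, against 0.03% and 0.50% with BPTES.

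The adventitial-like cells with a Wt1 UMI had less Igfbp6 than the rest of their class in all 3 libraries that held them: 953 against 1495 CPM in BPTES 2, 320 against 976 CPM in DMSO 1 and 678 against 1322 CPM in DMSO 2. That rest includes cluster 30, which held no such cells and had more Igfbp6 than cluster 18, where all of them lay. The contrast therefore mixes both clusters, and the level in the rest of cluster 18 alone is not given. The cells with a Wt1 UMI were chosen after seeing the data, and the values are a description.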
